A study of Mus musculus with 13 samples.

Results

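Interferon-stimulated effector genes are the genes that cells switch on to block infection once an interferon has bound its receptor. The 48 genes described here were chosen by name, with earlier results of these data known, as a list of interferon receptors, signal transducers and induced antiviral proteins. All 48 were found by symbol among the 17849 Ensembl genes of the RNA-seq table. Expression was measured in sorted CD4+CD8+ double-positive thymocytes, immature T cells that display both coreceptors. There were 2 wild type (WT) and 2 Rad21 KO libraries. Rad21 is a subunit of the cohesin ring, which holds chromatin loops. The labels of the 4 RNA libraries give genotype and cell type only. They state neither the age or background of the mice nor how and in which cells Rad21 was deleted, nor whether 2 libraries of a genotype came from separate animals. The p-values therefore measure the spread between these libraries, which may be technical.

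Type I interferons bind the receptor pair IFNAR1 and IFNAR2, and interferon gamma binds IFNGR1 and IFNGR2. At the type I receptor, the kinases JAK1 and TYK2 then activate the STAT proteins. A complex that includes STAT2 and IRF9 binds the interferon-stimulated response element (ISRE), a DNA element in the promoters of many induced genes. Interferon gamma signalling acts through another element, the gamma-activated sequence (GAS). Developing T cells express many of these genes at a low level without infection.

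Libraries held 6500819 to 9384505 counts. Lars2, which encodes the mitochondrial leucyl-tRNA synthetase, and the noncoding gene Gm15564 together took a share of 34.5% in Rad21 KO replicate 1, 12.6% in replicate 2, and 5.84% and 7.47% in the WT replicates. Without them the totals lay between 6015242 and 6245781. Levels are in CPM, counts relative to the library total after scaling with TMM factors, which correct for such a difference in composition, and 3 counts corresponded to 0.410 to 0.417 CPM. Rad21 RNA itself stood at 67.9 and 65.7 CPM in the knockout libraries and at 271 and 233 CPM in wild type (log2 fold change -1.91, SE 0.12). Its adjusted p was 0.000862 in edgeR's quasi-likelihood test, which gives all adjusted p-values here. All 12 markers of double-positive thymocytes were detected, with a summed level of 12062 and 10687 CPM in the knockout and 16805 and 15420.1 CPM in wild type. Of these 12, 4 were lower in the knockout (33.3%, against 5.17% of all tested genes). They were the recombinase genes Rag1 (log2 fold change -0.73) and Rag2 (-0.79), the polymerase gene Dntt (-0.63) and the selection regulator Themis (-0.96). A negative fold change was found for 11 of the 12 markers, and for 6059 of all 12003 tested genes. The call of Rag1 ended without Rad21 KO replicate 2 (-0.61) or WT replicate 1 (-0.66) and with the replicate number as a block (-0.73), and that of Dntt without Rad21 KO replicate 2 (-0.51) or WT replicate 1 (-0.54).

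Most of the genes stood higher in Rad21 KO cells, while the 3 receptor genes stood lower. Of the 48 genes, 45 passed the filter on low counts and 3 (Oas2, Oasl2 and Ifi44) did not. Among the 45 tested, 12 rose in the knockout, where 7.60% of all 12003 tested genes did. Only 1 fell, where 5.17% of all tested genes did. The genes that rose were Rsad2, Cmpk2, Usp18, Zbp1, Isg15, Bst2, Igtp, Irgm2, Parp14, Slfn2, Slfn5 and Cxcl10, and the gene that fell was Ifit2. The other 32 did not pass an adjusted p of 0.05. Of the 12 that rose, Cxcl10 passed the filter on low counts only through its knockout libraries. In bulk RNA, a change in the share of cells that express a gene and a change in RNA per cell cannot be told apart.

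**Figure D1:**
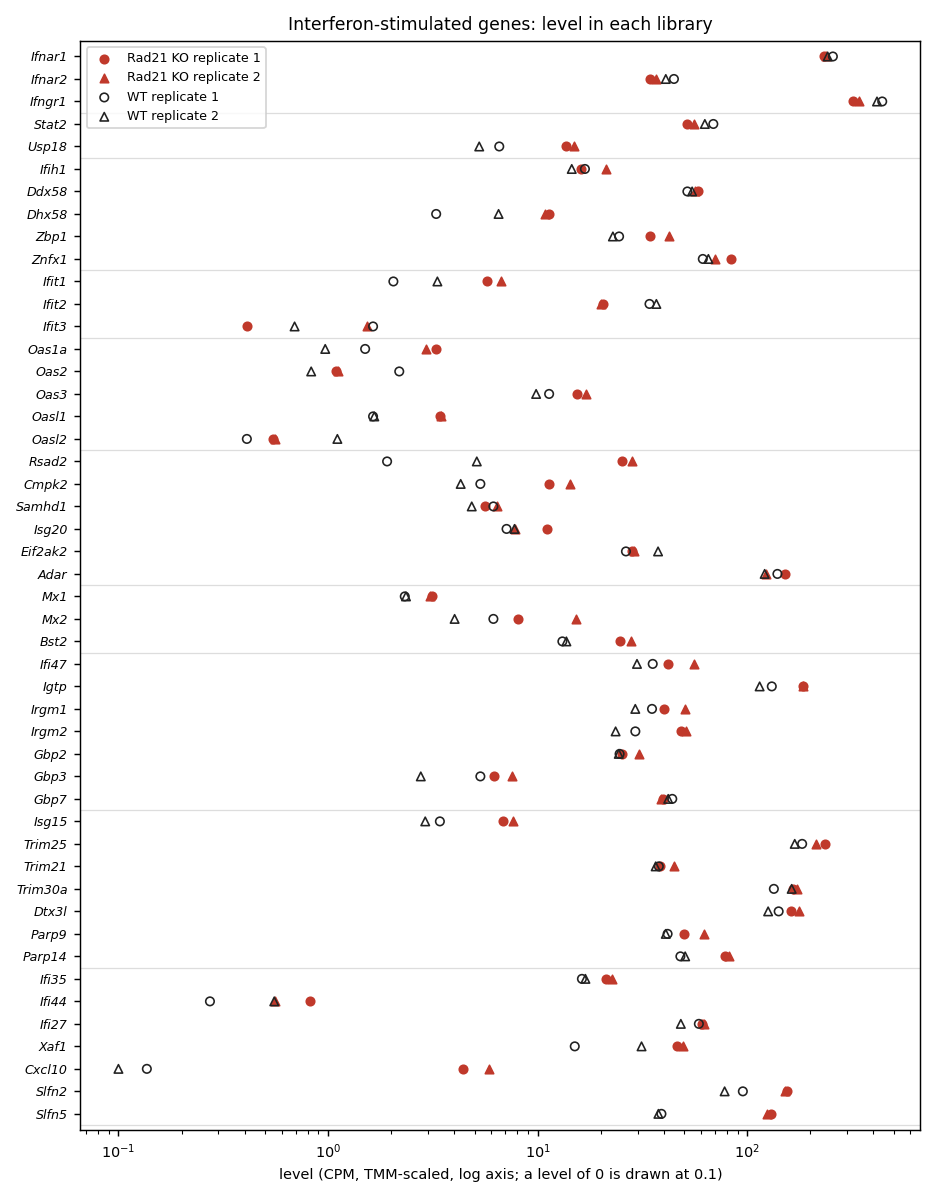
Level of each of the 48 genes in each library, in CPM on a log axis, with genes in order of role and grey lines between roles. Filled red marks are the 2 Rad21 KO libraries and open black marks the 2 WT libraries; Cxcl10 stands at 0.137 and 0 CPM in WT and at 4.38 and 5.84 CPM in the knockout, and the 0 is drawn at the left end of the scale.

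Taken over all 45 tested genes, those that passed included, levels also leaned higher in the knockout. As the list was chosen with earlier results of these data known, the shares below describe it and are no test. The median log2 fold change over the 45 tested genes was 0.43, beside -0.01 over all tested genes. Of the 45, 37 had a positive fold change (82.2%, against 49.5% of all tested genes). Both knockout libraries lay above both wild type libraries for 34 of the 45, where 29.7% of all tested genes did so, and below for 6, where 29.2% did. Over all tested genes, libraries did not overlap in either direction for 58.9%. An unadjusted p under 0.05 was reached by 28 of the 45 (62.2%), against 29.4% of all tested genes. These counts include Cxcl10 and Oas1a, which passed the filter on low counts only with their knockout libraries.

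**Figure D2:**
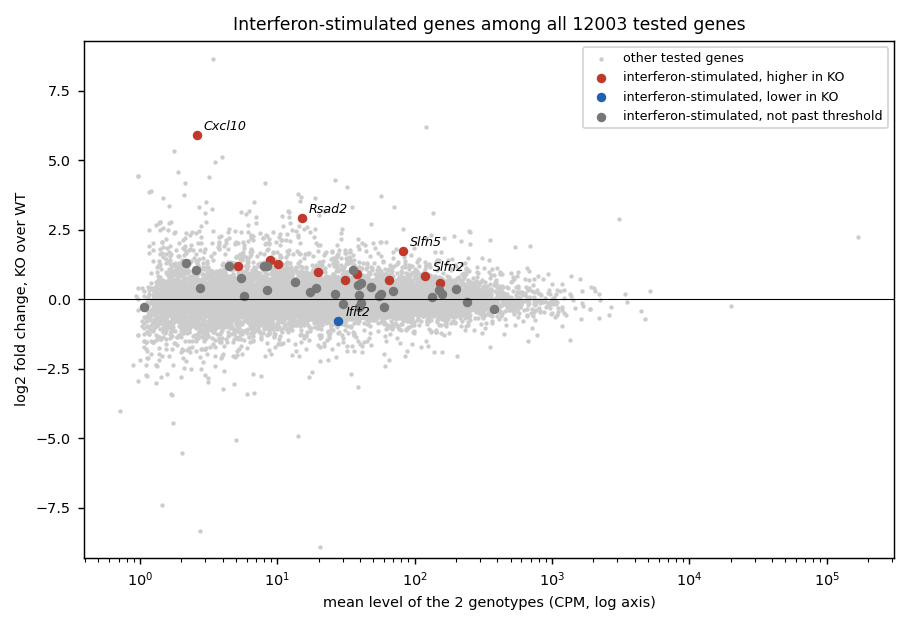
Log2 fold change of Rad21 KO over WT against the mean level in CPM (log axis) for all 12003 tested genes, with the 45 tested interferon-stimulated genes as larger points in red, blue or dark grey. The 12 red points and the single blue point are those past an adjusted p of 0.05, and Cxcl10 (5.90) and Rsad2 (2.92) lie highest among these larger points.

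The receptors stood slightly lower in the knockout and none passed the threshold in edgeR. An unadjusted p under 0.05 was reached by 1 of 3, against 29.4% of all tested genes. Ifnar1, the chain that binds TYK2, stood at 232 and 236 CPM in the knockout libraries and at 256 and 242 CPM in wild type (log2 fold change -0.09, 95% interval -0.31 to 0.14). Ifnar2, the chain bound by STAT2 and USP18, stood at 34.4 and 36.8 CPM against 44.7 and 40.9 CPM (-0.26, interval -0.58 to 0.05). Ifngr1, the ligand-binding chain of the interferon gamma receptor, stood at 321 and 343 CPM against 440.2 and 416 CPM (-0.37, SE 0.10, edgeR adjusted p = 0.0538). For all 3, both knockout libraries lay below both wild type libraries, as they did for 29.2% of all tested genes. Ifngr1 passed the threshold in DESeq2 (-0.37) and when Lars2 and Gm15564 were left out (-0.38).

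Of the signal transducer gene Stat2 and the feedback gene Usp18, Usp18 alone passed. Stat2 stood at 51.6 and 55.6 CPM in the knockout and at 68.9 and 62.7 CPM in wild type, a log2 fold change of -0.30 (interval -0.59 to -0.00) that did not pass the threshold. Usp18 encodes the protease that removes ISG15 from proteins and blocks the type I receptor. It stood at 13.7 and 14.9 CPM against 6.56 and 5.26 CPM, and rose (log2 fold change 1.27, SE 0.23, edgeR adjusted p = 0.0168). Its call was lost without WT replicate 2 (1.12).

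Among the sensors of foreign nucleic acid, Zbp1 alone passed. Zbp1, a sensor of Z-form nucleic acid that can trigger cell death, stood at 34.2 and 42.3 CPM in the knockout and at 24.5 and 22.9 CPM in wild type (log2 fold change 0.69, SE 0.16, edgeR adjusted p = 0.0366). It did not pass in DESeq2 (0.69), with the replicate number as a block (0.69), and without Rad21 KO replicate 2 (0.55) or either WT replicate (0.74 and 0.64). Dhx58, which encodes the RNA helicase LGP2, stood at 11.4 and 10.8 CPM against 3.28 and 6.51 CPM (1.18, SE 0.34, edgeR adjusted p = 0.0658). The wild type libraries were 1.98-fold apart. Dhx58 passed without WT replicate 2 (1.75) and stood at 0.77 without WT replicate 1. The helicase genes Ddx58, at 58.3 and 56.2 CPM against 51.8 and 54.6 CPM, and Ifih1, at 16.2 and 21.3 CPM against 16.8 and 14.5 CPM, encode RIG-I and MDA5. Their log2 fold changes were 0.11 (interval -0.17 to 0.39) and 0.25 (interval -0.23 to 0.74), and the libraries overlapped for Ifih1. Znfx1, a helicase that senses viral RNA, stood at 0.28 (SE 0.13).

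Of the 3 IFIT genes, whose proteins bind viral RNA, Ifit2 alone passed. Ifit2 stood at 20.5 and 20.2 CPM in the knockout and at 34.2 and 36.8 CPM in wild type. It fell by 0.80 on the log2 scale (SE 0.15, edgeR adjusted p = 0.0166), and the call was lost without WT replicate 2 (-0.75). Ifit1 stood at 5.75 and 6.67 CPM against 2.05 and 3.32 CPM (1.204, SE 0.36), and did not pass (edgeR adjusted p = 0.0730). Ifit3 had 3 and 11 knockout counts against 12 and 5, too few to show a difference of moderate size (-0.27, interval -2.01 to 1.47).

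OAS proteins make the 2'-5' oligoadenylate that activates RNase L, and none of the 3 tested passed in edgeR. All 3 had an unadjusted p under 0.05, as 29.4% of all tested genes did. Of these, Oas1a passed the filter on low counts only with its knockout libraries, as it had 11 and 7 counts in wild type. Oas3 stood at 15.3 and 17.1 CPM in the knockout and at 11.3 and 9.83 CPM in wild type (log2 fold change 0.61, SE 0.20). Oas1a stood at 3.29 and 2.92 CPM against 1.503 and 0.969 CPM (1.31, SE 0.43), and the OAS-like gene Oasl1 at 3.42 and 3.47 CPM against 1.64 and 1.66 CPM (1.06, SE 0.37). Libraries did not overlap for any of these 3, as for 58.9% of all tested genes. Their adjusted p lay between 0.0891 and 0.113 by edgeR. For Oas2, 16 counts came from the knockout and 22 from wild type (ratio 0.729, 95% counting interval 0.358 to 1.45). Oasl2 had 8 against 11 (0.729, interval 0.255 to 1.99), and no difference was detected for either. These intervals cover counting error only.

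The adjacent genes Rsad2 and Cmpk2 rose most among the enzymes of RNA and nucleotides. Rsad2 encodes viperin, which turns CTP into a chain terminator of viral RNA synthesis. It stood at 25.3 and 28.1 CPM in the knockout and at 1.91 and 5.12 CPM in wild type (log2 fold change 2.92, SE 0.37, edgeR adjusted p = 0.00459). The wild type libraries were 2.68-fold apart, and the fold change was 2.38 without WT replicate 1 and 3.79 without WT replicate 2. Cmpk2, a mitochondrial nucleotide kinase gene, stood at 11.4 and 14.3 CPM against 5.33 and 4.29 CPM (1.41, SE 0.26, edgeR adjusted p = 0.0177), with its call lost without WT replicate 2 (1.26). The RNA-editing enzyme gene Adar stood at 151 and 123 CPM against 139 and 121 CPM (0.08, interval -0.24 to 0.40). Eif2ak2, which encodes the translation-blocking kinase PKR, stood at 28.2 and 28.8 CPM against 26.4 and 37.5 CPM (-0.17, interval -0.62 to 0.29). Libraries overlapped for both, as they did for the dNTP hydrolase gene Samhd1 (0.13), whose sign, like those of Adar, Eif2ak2 and Ifit3, changed under at least 1 alternative setting. The exonuclease gene Isg20 had a log2 fold change of 0.34 (SE 0.27).

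Bst2, which encodes tetherin, a protein that holds budding virus at the cell surface, stood at 24.8 and 27.9 CPM in the knockout and at 13.1 and 13.7 CPM in wild type. Its log2 fold change was 0.97 (SE 0.17, edgeR adjusted p = 0.0140), and the libraries did not overlap. The dynamin-like genes Mx2, at 8.08 and 15.3 CPM against 6.15 and 4.02 CPM (1.196, SE 0.38), and Mx1, at 3.15 and 3.06 CPM against 2.32 and 2.35 CPM (0.41, SE 0.36), did not pass. The knockout libraries of Mx2 were 1.89-fold apart, and Mx2 passed without Rad21 KO replicate 1 (1.59) and stood at 0.68 without replicate 2. RefSeq lists both Mx genes as transcribed pseudogenes in the C57BL/6J reference.

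Immunity-related GTPases (IRGs) and guanylate-binding proteins (GBPs) take part in the defence of cells against intracellular microbes. Igtp stood at 184.9 and 185 CPM in the knockout and at 131 and 115 CPM in wild type (log2 fold change 0.59, SE 0.11, edgeR adjusted p = 0.0165), with its call lost without WT replicate 2 (0.49). Irgm2 stood at 48.2 and 51.3 CPM against 29.2 and 23.5 CPM (0.91, SE 0.15, edgeR adjusted p = 0.0127). The related Irgm1 (0.49, SE 0.17) and Ifi47 (0.58, SE 0.18) did not pass, and each passed without Rad21 KO replicate 1 (0.66 and 0.78). Without Rad21 KO replicate 2 they stood at 0.33 and 0.38. None of the 3 GBP genes passed. Gbp2 stood at 25.3 and 30.4 CPM against 24.6 and 24.4 CPM (0.19, interval -0.19 to 0.57), Gbp7 at 39.6 and 38.8 CPM against 43.9 and 42.0 CPM (-0.13, interval -0.43 to 0.16), and Gbp3 had a log2 fold change of 0.75 (SE 0.38).

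ISG15 is a ubiquitin-like protein attached to other proteins during an interferon response. Isg15 stood at 6.84 and 7.64 CPM in the knockout and at 3.42 and 2.91 CPM in wild type (log2 fold change 1.19, SE 0.30, edgeR adjusted p = 0.0447). Its call was lost without any 1 of the 4 libraries (1.08 to 1.31), in DESeq2 (1.196) and with the replicate block (1.19). Parp14, an ADP-ribosyltransferase gene, stood at 78.4 and 81.7 CPM against 47.96 and 50.5 CPM (0.70, SE 0.12, edgeR adjusted p = 0.0121). The ubiquitin ligase genes Trim25, at 235 and 212 CPM against 183 and 168 CPM (0.35, SE 0.10), and Trim30a, at 165 and 173 CPM against 134 and 163 CPM (0.19, SE 0.12), did not pass. The ligase gene Dtx3l stood at 0.34 (SE 0.11) and its partner Parp9 at 0.43 (SE 0.15), Parp9 passing without Rad21 KO replicate 1 (0.59) and standing at 0.28 without replicate 2. Trim21, an intracellular antibody receptor gene, stood at 0.16 (SE 0.14).

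The Schlafen genes Slfn5 and Slfn2 and the chemokine gene Cxcl10 rose as well. Slfn5 stood at 129 and 124 CPM in the knockout and at 38.9 and 37.7 CPM in wild type. This was the smallest p among the 48 genes (log2 fold change 1.72, SE 0.11, edgeR adjusted p = 0.000882), and the value stayed between 1.69 and 1.77 in every setting tried. Slfn2, a gene required for T cell quiescence, stood at 155 and 151 CPM against 95.2 and 78.0 CPM (0.82, SE 0.13, edgeR adjusted p = 0.00898). Cxcl10, which encodes a ligand of the receptor CXCR3, had 32 and 42 knockout counts against 1 and 0. Summed over libraries and scaled for depth, the ratio was 74.2 (95% counting interval 12.9 to 2970), with a denominator of 1 count. Cxcl10 passed the filter on low counts only through its knockout libraries, so only a rise could be called. The fitted log2 fold change was 5.90 (SE 0.76, edgeR adjusted p = 0.00433). It was 8.21 without WT replicate 1 and 5.05 without WT replicate 2, and passed without any 1 of the 4 libraries.

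Of the other induced genes, the apoptosis-linked Xaf1 stood at 46.3 and 49.5 CPM in the knockout and at 15.03 and 31.3 CPM in wild type (log2 fold change 1.05, SE 0.30, edgeR adjusted p = 0.0647). Its wild type libraries were 2.08-fold apart. Xaf1 passed in DESeq2 (1.05), in limma-voom (1.14) and without WT replicate 2 (1.66), and stood at 0.61 without WT replicate 1. Ifi27, at 60.5 and 62.3 CPM against 58.8 and 48.2 CPM, had a log2 fold change of 0.20 (interval -0.13 to 0.53), and Ifi35 one of 0.40 (SE 0.16). For Ifi44, 10 counts came from the knockout and 6 from wild type (ratio 1.67, counting interval 0.550 to 5.59). For 21 of the 32 genes that did not pass, the 95% interval of the difference lay within 2-fold in either direction.

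**Figure D3:**
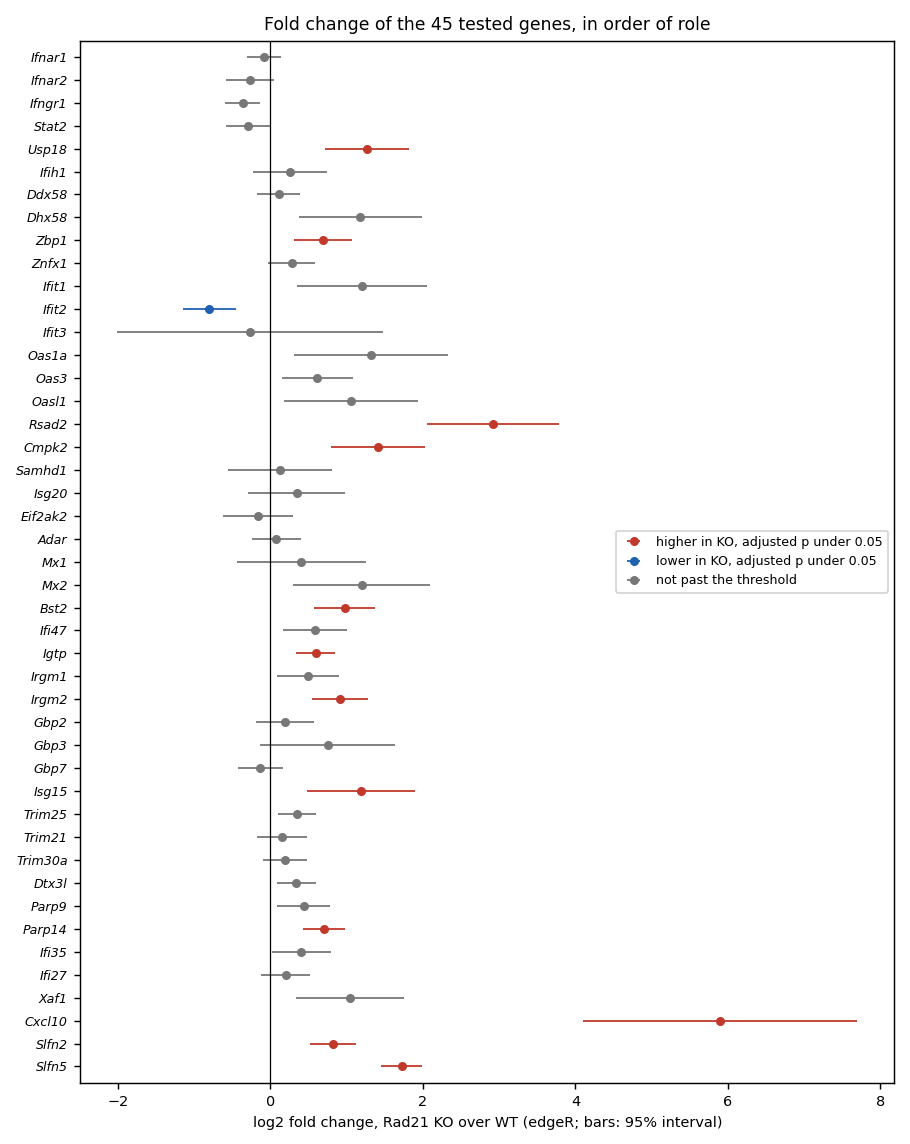
Log2 fold change of Rad21 KO over WT for the 45 tested genes in order of role, with 95% intervals from the edgeR fit (2 libraries per genotype). Red points are the 12 genes that rose, the blue point is Ifit2 (-0.80), and grey points did not pass an adjusted p of 0.05.

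Libraries of a genotype also differed for these genes. In wild type, 9 of the 45 tested genes were at least 1.5-fold apart between replicates (20.0%, against 11.3% of all tested genes), and in the knockout 2 were (4.44%, against 15.2%). Some of these 9 rest on few wild type counts, such as Cxcl10 with 1 and 0 and Ifit3 with 12 and 5, while Xaf1 had 110 and 226. Knockout replicate 2 stood above replicate 1 for 33 of the 45 (73.3%, against 50.3% of all tested genes). Wild type replicate 2 stood above replicate 1 for 15 of the 45 (33.3%, against 47.2%). Without Rad21 KO replicate 1, 15 of 46 tested members were higher, of which 11 were among the 12, and the median log2 fold change was 0.59. In that setting 880 of all 12510 tested genes were higher (7.03%). Without WT replicate 2, 9 were higher, of which 7 were among the 12, and Ifit2 did not pass. There 574 of all 12426 tested genes were higher (4.62%). With no filter on low counts, 5 were higher and Ifit2 did not pass (-0.81), where 285 of all 17003 tested genes were higher (1.68%). These 5 were Rsad2, Bst2, Parp14, Cxcl10 and Slfn5, which were called under each of the 10 settings tried. The replicate block left 10 higher and 1 lower, where 644 and 381 of all 12003 tested genes were.

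Some of these genes lie beside each other in the genome, and neighbours did not always move alike. By RefSeq gene order (GRCm38.p6), 22 of the 46 genes found there fell into 9 groups with at most 5 protein-coding genes between members. In the Ifit group, Ifit2 lies at the end next to Lipa, a lysosomal lipase gene. Lipa stood at 174 and 154 CPM in the knockout and at 293 and 273 CPM in wild type, and fell by 0.78 on the log2 scale (SE 0.11), close to the change of Ifit2. Ifit1 lies at the other end of the group. Between them, Ifit1bl1 (0.32, SE 0.46) and Ifit1bl2 (0.66, SE 0.51) did not pass, at 1.23 to 2.78 CPM over the 4 libraries.

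Rsad2 and Cmpk2 are neighbours, with Rnf144a on the Rsad2 side not past the threshold (-0.82, SE 0.32) and Id2 beyond it higher (1.77, SE 0.15). In the Schlafen group, Slfn9 and Slfn8 lie between Slfn5 and Slfn2. Slfn9 stood at 66.3 and 71.9 CPM in the knockout and at 70.0 and 76.4 CPM in wild type (-0.08, SE 0.12), and Slfn8 at 18.1 and 24.7 CPM against 19.1 and 18.7 CPM (0.18, SE 0.20). Slfn1, next to Slfn2 on the other side, stood at 2.46 and 3.89 CPM against 1.37 and 0.692 CPM and did not pass (1.61, SE 0.51, edgeR adjusted p = 0.0826). The difference in response between these neighbours was not tested. Beyond Parp14, Dtx3l and Parp9, the importin gene Kpna1 rose as well (1.05, SE 0.10). On the Parp14 side, Hspbap1 fell (-0.81, SE 0.19, edgeR adjusted p = 0.0348), a call lost without Rad21 KO replicate 2 (-0.64) or WT replicate 2 (-0.73). Beside Ifnar1, the interferon gamma receptor chain gene Ifngr2 stood at 59.96 and 71.6 CPM against 39.4 and 42.7 CPM (0.68, SE 0.14). Ifngr2 did not pass without Rad21 KO replicate 2 (0.56) or WT replicate 1 (0.62). These neighbours were named for their position.

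**Figure D4:**
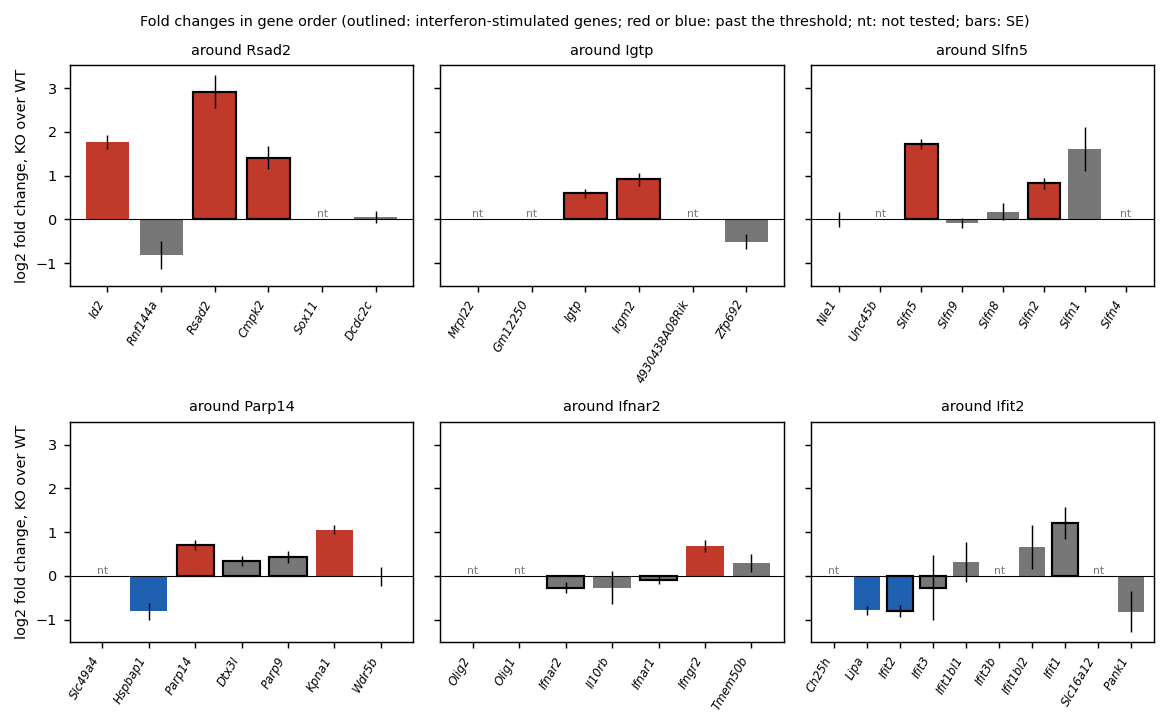
Log2 fold change of Rad21 KO over WT (bars, with SE) for genes in chromosome order around 6 groups of interferon-stimulated genes, which are outlined in black. Red and blue bars passed an adjusted p of 0.05; Ifit2 and Lipa are both blue (-0.80 and -0.78), while Slfn9 and Slfn8 between the red Slfn5 and Slfn2 are grey.

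Promoter sequences were at hand for 39 of the 48 genes, from RefSeq (GRCm38.p6). The ISRE core was searched as TTTC, any 2 bases and TTTC again, which reads as a pair of GAAA blocks on the other strand, in the 250 bases before each start. It was found upstream of 17 of the 39 genes (43.6%), against 936 of all 27025 genes with a promoter (3.46%). Of the 9 genes that rose and have a promoter here, 7 held a match, as did 10 of the 29 that did not pass or were not tested. This split depended on the letters and the window. A longer form, with AG before the core, was found for 2 of the 9 genes that rose (22.2%) and 8 of the other 29 (27.6%). With the window reaching 50 bases past the start, the core was found for 7 of the 9 and 14 of the 29. The GAS letters TTCNNNGAA, which read the same on both strands, were found for 10 of the 39 genes (25.6%), against 8.13% of all genes with a promoter. Ifit2 held a GAS match and no ISRE core in this window. These are matches of letters, not measured binding sites, and no test was made on them.

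The stretches with an ISRE core upstream of the 7 genes that rose are shown first, so that a reader can see the element they share. Those of Ifit1 and Ifit3 follow, as relatives of Ifit2 that hold matches and did not pass. Each is 80 bases of the gene's own strand, 5′ to 3′, within the 250 bases before the start. Capitals mark ISRE core matches on either strand, and overlapping matches run together.
Rsad2 (chr12:26456528-26456607, minus strand): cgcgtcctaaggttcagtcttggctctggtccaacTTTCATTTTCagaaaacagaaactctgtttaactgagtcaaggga
Cxcl10 (chr5:92349058-92349137, minus strand): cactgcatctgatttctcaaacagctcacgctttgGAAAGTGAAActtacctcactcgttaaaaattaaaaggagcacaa
Isg15 (chr4:156200846-156200925, minus strand): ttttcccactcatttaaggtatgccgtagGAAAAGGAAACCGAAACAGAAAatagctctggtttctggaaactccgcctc
Bst2 (chr8:71537555-71537634, minus strand): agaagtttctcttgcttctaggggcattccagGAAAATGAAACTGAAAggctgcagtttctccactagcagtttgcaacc
Irgm2 (chr11:58214878-58214957, plus strand): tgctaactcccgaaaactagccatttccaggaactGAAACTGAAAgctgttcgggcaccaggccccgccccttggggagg
Igtp (chr11:58199476-58199555, plus strand): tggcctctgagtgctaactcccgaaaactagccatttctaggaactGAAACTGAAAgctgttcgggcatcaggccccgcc
Slfn5 (chr11:82951912-82951991, plus strand): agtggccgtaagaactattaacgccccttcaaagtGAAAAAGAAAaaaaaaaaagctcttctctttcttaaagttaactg
Ifit1 (chr19:34640759-34640838, plus strand): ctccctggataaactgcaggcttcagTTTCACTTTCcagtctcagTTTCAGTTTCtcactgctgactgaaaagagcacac
Ifit3 (chr19:34583355-34583434, plus strand): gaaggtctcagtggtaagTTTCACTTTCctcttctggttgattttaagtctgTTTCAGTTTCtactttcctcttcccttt

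The stretches differ in how the element is built. Isg15 holds 3 overlapping matches in a row and Bst2 holds 2, the first of which overlaps a GAS match. Ifit1 and Ifit3 each hold 2 separate ones. Igtp and Irgm2, which lie beside each other and both rose, have nearly the same promoter: aligned on the match without gaps, 67 of 69 bases were identical. Both also hold a GAS match, just before the ISRE match. The match of Slfn5 stands at the start of a run of adenines. The coordinates are those of the RefSeq build, while the expression table was made on mm9.

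**Figure D5:**
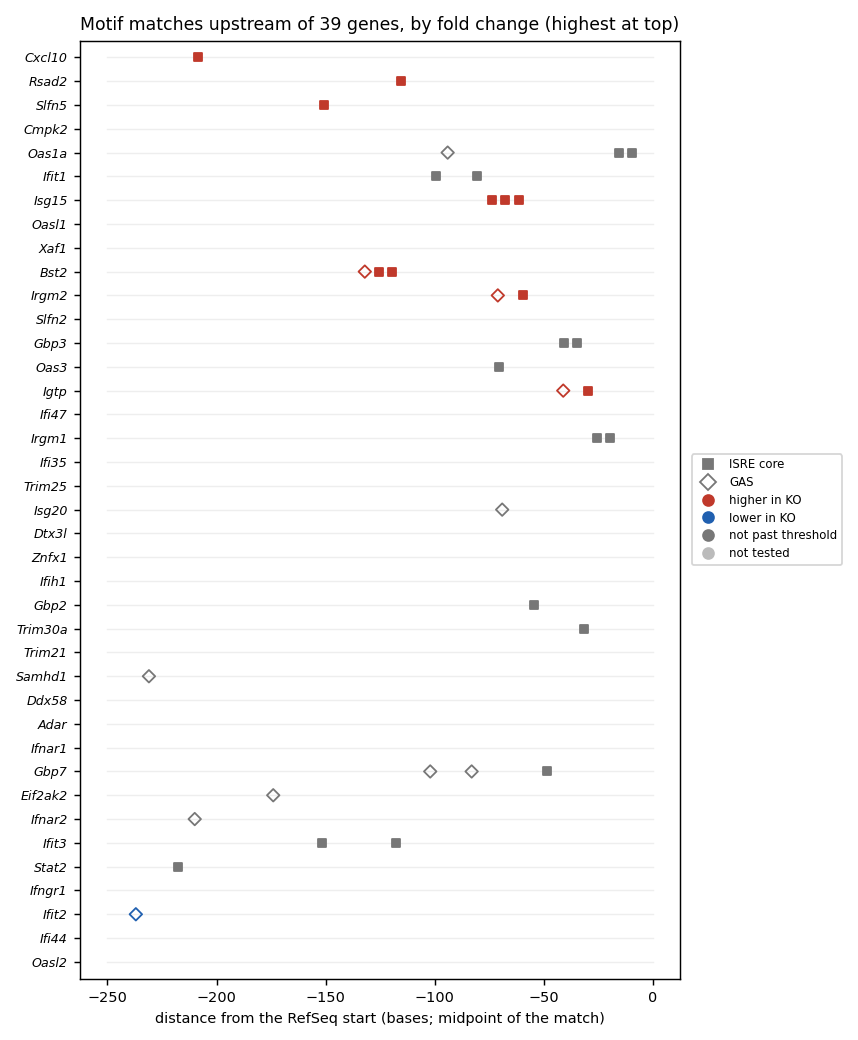
Position of ISRE core matches (filled squares) and GAS matches (open diamonds) in the 250 bases before the RefSeq start, for the 39 genes with a promoter, ordered by log2 fold change with the highest at the top and untested genes at the bottom. Red marks genes that rose, and 7 of these 9 hold a square.

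The rest of the pathway was read from a pair of fixed lists. Of 40 upstream genes of interferon production and signalling, 32 were in the table and 29 tested, of which 7 rose and 1 fell (27.6% called, against 12.8% of all tested genes). The median log2 fold change was 0.03. Irf9, which encodes the DNA-binding partner of STAT2, stood at 107 and 139 CPM in the knockout and at 51.1 and 35.9 CPM in wild type (1.504, SE 0.20). Irf1 (1.97) and Irf7 (0.90), transcription factors of the same response, rose as well, as did the feedback genes Socs1 (0.44) and Ptpn2 (0.77), and Ifngr2. Irf3 fell (-0.49), with its call lost without any 1 of the 4 libraries (-0.41 to -0.58). The kinase genes Jak1 (0.03, SE 0.10) and Tyk2 (-0.12, SE 0.15) did not pass.

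Leaving out 1 library also ended the call of Irf7 (0.85 without WT replicate 1). Socs1 was lost without any library but WT replicate 1 (0.32 to 0.49 in those 3 settings), and Ptpn2 without any but Rad21 KO replicate 2 (0.64 to 0.81). Of the interferon genes themselves, Ifng had 0 or 1 counts in each library, and Ifnk, at 0.821 and 1.53 CPM against 1.503 and 1.66 CPM, did not pass (-0.43, SE 0.50).

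A list of 87 further induced genes held calls in both directions. Of its members, 80 were in the table and 66 tested, of which 7 rose (10.6%, against 7.60% of all tested genes) and 6 fell (9.09%, against 5.17%), with a median log2 fold change of 0.14. Those that rose were Gbp11 (1.24), Uba7 (1.198), which encodes the activating enzyme of ISG15, Tgtp2 (1.14), B2m (0.82), the light chain of MHC class I, Tnfsf10 (0.80), Lgals3bp (0.75) and Rnf213 (0.54). Those that fell were Parp11 (-1.22), Gbp8 (-1.12), Sp100 (-0.63), Trim12c (-0.60), Gbp4 (-0.48) and Cnp (-0.48). Libraries of a genotype stood far apart for some of the list. Epsti1 had 656 and 71 counts in wild type, Ifi204 had 1 and 53 there, and Tgtp1, a close copy of Tgtp2, had 5 and 187 in the knockout. These 3 did not pass and were singled out after their values were seen. Of the 21 genes called in both lists, 7 were called whichever library was left out (Irf9, Irf1, Gbp8, Sp100, Uba7, Parp11 and B2m).

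Markers of other cells that a thymus sort can hold ranged from absent to abundant, and some moved with genotype. For macrophages and dendritic cells, 13 of 14 markers were in the table and 6 tested. Their summed level was 26.4 and 29.7 CPM in the knockout and 37.4 and 43.5 CPM in wild type, and Itgax and Clec9a had 0 or 1 counts in each library. The only one called was Itgam, which fell (-1.29), with its call lost without WT replicate 2 (-1.05). For plasmacytoid dendritic cells, a main source of type I interferon, Siglech had 4 to 13 counts and Cox6a2 had 0 in each library. Of that list, Spib (2.44) and Tcf4 (0.60) rose, the latter losing its call without Rad21 KO replicate 1 (0.59) or either WT replicate (0.63 and 0.57). The summed level of that list was 1070.0 to 1071.8 CPM in the knockout and 1027 to 1051 CPM in wild type, nearly all from Ccr9, which double-positive thymocytes also express.

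The B cell marker Ms4a1 had 0 or 1 counts in each library, and none of the 4 tested B cell genes was called by edgeR (2 with an unadjusted p under 0.05). The summed level of the 8 B cell markers was 376 to 431 CPM in the knockout and 330.3 to 340.1 CPM in wild type. Nearly all of it came from Ighm, the immunoglobulin mu heavy chain gene, at 409.97 and 357 CPM against 312 and 305 CPM. Among the 9 thymic epithelial markers, Epcam (3.08) and Cdh1 (5.86) rose, while the keratin genes Krt5, Krt8 and Krt14 had 0 to 5 counts. Epcam had 69 and 84 knockout counts against 11 and 7 in wild type, and Cdh1 had 29 and 43 against 1 and 0. Both passed the filter on low counts only with their knockout libraries, so only a rise could be called. The summed level of the 9 epithelial markers was 32.6 and 37.1 CPM against 20.6 and 21.9 CPM. The NK and γδ T cell markers, with 3 of 8 tested and 0 called by edgeR (2 with an unadjusted p under 0.05), summed to 18.9 and 25.3 CPM against 15.8 and 14.1 CPM. Erythroid markers summed to 3.56 and 7.78 CPM against 5.33 and 3.60 CPM, with 0 of 3 tested called (0 with an unadjusted p under 0.05). Of 9 markers of mature single-positive thymocytes, 8 were tested, 3 rose (Ccr7 3.03, Klf2 1.13 and Foxo1 1.58) and 2 fell, among them Cd44 (-2.77), and they summed to 691 and 810.4 CPM against 609 and 639 CPM. The part of these cells in the interferon-stimulated genes was not tested.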

How the data were processed

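RNA-seq of sorted thymocytes was used, with 2 Rad21 KO and 2 WT libraries among the series' 13 samples. Per the labels' protocols, total RNA went through RiboMinus removal of ribosomal RNA before Illumina TruSeq library preparation. The authors deposited estimated counts ("count equivalents") per Ensembl gene, on mm9 per the submitters' processing notes; all values are whole numbers. No source used here names the aligner, the counter or the handling of strand: these are "not given in the sources". Overlapping genes and near-identical copies (Ifit, Oas1, Gbp, Mx, Tgtp, Trim30 and Slfn families) have uncertain counts. The knockout columns drop a digit of Rad21 and were matched on genotype and replicate number. A symbol was available for 17342 of 17849 identifiers.

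Rounded counts were fitted with edgeR 4.0.16 (R 4.3.3): filterByExpr (minimum count 10), TMM, quasi-likelihood test of genotype, Benjamini-Hochberg adjustment over all tested genes and a threshold of 0.05. The procedure was tested on simulated data with the same relative spread for every gene. Those data lacked the difference in Lars2 share and the uneven replicates seen here. The 48 genes, their roles and the other lists were chosen with earlier results of these data known. Every gene past the threshold, and the most abundant others per role, are given by library. Genes of the pathway lists are named if called, except that some genes of the lists are not reported here by name. Alternatives were DESeq2 1.42.0, limma-voom 3.58.1, RLE factors, no filter, a replicate block, Lars2 and Gm15564 left out, and each library left out. Raw counts of the replicates varied beyond sampling noise (chi-square per degree of freedom 85.9 in the knockout and 7.43 in wild type). These values include Lars2 and Gm15564 and use no TMM scaling. Differences between replicates in the share of these genes therefore enter them. Peak lists (mm9) and Hi-C were not used here.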

Additional observations from a re-analysis of the deposited data

How the results depend on the processing

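Under the 10 settings tried, of 450 values of the tested members, none that was called changed sign, 23 lost a call and 10 gained one, and 41 of 45 tested members kept one sign throughout (not Ifit3, Samhd1, Eif2ak2 or Adar). With no filter on low counts, 5 members were higher and 0 lower by edgeR (2 of the lower ones at an unadjusted p under 0.05, as also without WT replicate 2), 433 genes were called in all and 4 pathway genes, where 17003 genes were tested. DESeq2 and the fit without Lars2 and Gm15564 each gave 2 of 45 members lower. In DESeq2, 511 of all 12003 tested genes were lower (4.26%), and 633 of 12075 were in the other fit (5.24%). Leaving out 1 library at a time gave 9 to 15 members higher, 0 to 1 lower, a median log2 fold change of 0.41 to 0.59, 947 to 1438 genes called in all and 13 to 21 pathway genes. The low counts (9, 0, 947 and 13) came without WT replicate 2, and the high median without Rad21 KO replicate 1. The cause of these differences was not tested. Replicate numbers are shared between genotypes in the labels, but nothing ties same-numbered libraries together, and their deviations from the genotype means correlated at 0.03. With the replicate block 1025 genes were called in all, against 1533 without it, and 10 members were higher, Zbp1 and Isg15 losing their calls. The ISRE core with AG before it matched upstream of 10 members and a window reaching 50 bases past the start gave 21, against 17, and both moved the split between genes that rose and others. Depth limits what can be said of Ifit3, Oas2, Oasl2 and Ifi44.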
